A study of Mus musculus with 4 samples.

Results

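Semaphorins are guidance proteins, and plexins and neuropilins are their receptors and co-receptors. The genes described here are the 31 features, of 32285 in the count matrices, whose symbols are those of class 3 to class 7 semaphorins (Sema), of plexins A to D (Plxn) or of the neuropilins (Nrp). They comprise 20 semaphorin genes, 9 plexin genes and 2 neuropilin genes. The genes were chosen by name and not by any measured value. Single-nucleus RNA was sequenced from the hippocampus of 4 mice, 1 library each, with the 3' gene expression chemistry of 10x Genomics. All of the mice were of the genotype ArcCreERT2::eYFPflx, in which a tamoxifen-dependent Cre under Arc control permanently switches on eYFP in neurons that express this immediate early gene. The 2 trained mice (Trained replicates 1 and 2) had learned active place avoidance, a task in which a mouse keeps out of a shock zone on an arena. The 2 untrained mice (Untrained replicates 1 and 2) carried the same alleles. Tissue was taken 3 days after the retention test of that memory and recall was not evoked again. The comparison is of trained and untrained mice at that time. Memory storage cannot be told apart in it from other effects of the training, such as the shock. The labels give neither age nor sex, and nuclei with the eYFP tag were not separated here. With 2 mice in a group, the p-values below measure the spread among these 4 libraries. Those of the comparison between classes differ: they rest on the scatter of classes within the libraries.

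Semaphorins were first known as repellents of growing axons. Class 3 members are secreted and most of them bind a neuropilin, which carries the ligand binding site, paired with a plexin A, whose cytoplasmic GTPase-activating domain passes the signal to small GTPases, collapsin response mediator proteins and the cytoskeleton. Classes 4 to 7 are tethered to the membrane and bind plexins directly. In the hippocampus these proteins set the layers in which mossy fibres, entorhinal and commissural axons end, and in the adult they act on dendritic spines and synapses.

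Promoters are shown for 4 genes on which the results turn: Sema5a and Sema3e, whose levels were opposed between dentate granule and CA1 nuclei, and the neuropilins Nrp1 and Nrp2. Each is RefSeq's sequence in build GRCm38.p6, from 250 bases before to 50 bases after an annotated start, 5′ to 3′ on the plus strand; capitals mark the motif TGACG on either strand.

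Sema5a, chr15:32244563-32244862: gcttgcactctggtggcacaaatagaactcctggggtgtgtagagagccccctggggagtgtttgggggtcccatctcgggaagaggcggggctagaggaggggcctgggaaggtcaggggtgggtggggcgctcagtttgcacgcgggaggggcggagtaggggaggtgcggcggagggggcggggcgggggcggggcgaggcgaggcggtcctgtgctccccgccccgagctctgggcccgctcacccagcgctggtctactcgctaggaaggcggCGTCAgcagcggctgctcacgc

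Sema3e, chr5:14025026-14025325: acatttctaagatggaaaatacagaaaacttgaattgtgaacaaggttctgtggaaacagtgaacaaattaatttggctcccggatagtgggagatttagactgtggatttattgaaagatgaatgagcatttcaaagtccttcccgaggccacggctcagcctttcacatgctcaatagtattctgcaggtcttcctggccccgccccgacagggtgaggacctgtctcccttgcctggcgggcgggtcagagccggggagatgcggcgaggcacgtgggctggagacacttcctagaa

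Nrp1, chr8:128358823-128359122: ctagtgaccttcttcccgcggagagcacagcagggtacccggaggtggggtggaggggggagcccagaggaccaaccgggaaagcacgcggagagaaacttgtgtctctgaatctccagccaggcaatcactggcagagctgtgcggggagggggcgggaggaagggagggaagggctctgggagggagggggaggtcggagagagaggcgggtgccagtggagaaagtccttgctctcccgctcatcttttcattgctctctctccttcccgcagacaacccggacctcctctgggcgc

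Nrp2, chr1:62703067-62703366: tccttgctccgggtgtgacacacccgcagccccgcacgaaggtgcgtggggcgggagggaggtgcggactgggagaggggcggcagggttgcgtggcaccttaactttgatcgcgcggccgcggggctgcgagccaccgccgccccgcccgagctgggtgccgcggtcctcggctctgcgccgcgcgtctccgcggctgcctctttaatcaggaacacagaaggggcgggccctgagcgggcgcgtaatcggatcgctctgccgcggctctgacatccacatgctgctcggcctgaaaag

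GC content was 71.3% for Sema5a, 50.7% for Sema3e, 64.0% for Nrp1 and 70.7% for Nrp2, against a median of 52.67% over all promoters in the table. Of the 31 genes, 26 matched the table, with 37 promoters. The cyclic AMP response element TGACGTCA, bound by CREB, was found in 0 of these promoters and in 1.79% of all 32851 searched on both strands. Its shorter core TGACG, which the full element contains, lay in the promoters of 3 of the genes (Sema3d, Sema5a and Sema7a) and in 20.8% of all promoters. The E-box CAGATG lay in those of 2 (Sema3c and Sema4a) and in 17.2% of all.

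Barcodes with at least 600 UMIs numbered 47110, and 43463 remained after probable doublets were removed. Trained replicate 1 was the shallowest library, with a median of 736 UMIs per such barcode against 887 to 1079 in the others, and 17 to 65 barcodes were shared between any pair of libraries. The names of 14 cell classes were rebuilt here from marker genes and mean "like" that cell type; 8016 nuclei took no name. Beside CA1 pyramidal (7205 nuclei), CA3 pyramidal (3829), dentate granule (7370) and inhibitory (3242) nuclei, the hippocampal samples held upper-layer (3711) and deep-layer (2536) cortical, thalamic excitatory (2410) and habenular (660) nuclei, and no microglial cluster. Habenular nuclei numbered 3 in Trained replicate 2, so that library gives no habenular level. Endothelial (217), ependymal (153) and choroid plexus (141) nuclei were few, so levels there can rest on few UMIs. The make-up differed between libraries: upper-layer cortical nuclei numbered 155, 234, 2815 and 507 in Trained replicates 1 and 2 and Untrained replicates 1 and 2, an order of libraries kept below, and CA3 nuclei 1051, 1502, 691 and 585. Barcodes with at most 400 UMIs, which can hold RNA from outside nuclei as well as shallow nuclei, give the low-UMI level of each gene in the same library. The files hold no barcode under 101, 174, 201 and 251 UMIs, in that order, so the low-UMI barcodes span different depths (medians of 216, 222, 312 and 306 UMIs) and their levels are not strictly alike between libraries.

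The 31 genes gave 101347 UMIs in the barcodes with at least 600 UMIs, 0.201% of the total. Of the 31, 15 reached 1000 UMIs and make up the map of levels by class. The least detected were Sema3b (52 UMIs), whose highest mean was 36.2 CPM in choroid plexus nuclei (0 to 145 CPM), and Sema3g (8). Levels (CPM) are UMIs of the gene per 1000000 UMIs of a class in a library; they are compared here between classes for 1 gene and not between genes. Over all these barcodes, 12 genes lay above their low-UMI level in each of the 4 libraries and 13 lay below it in each, among them Sema3c, Sema6b, Sema7a, Plxna1, Plxnb2 and Plxnd1. The class with the highest mean was separate from the next class, with no overlap of libraries, for 7 genes, and for 5 of them (Nrp2, Plxna4, Sema3d, Sema5a and Sema6a) all of its libraries lay above those of the other 13 classes. The share of all genes with such a separation is not given here. Since the classes are groups of the same nuclei, these levels are a description, without a test.

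**Figure D1:**
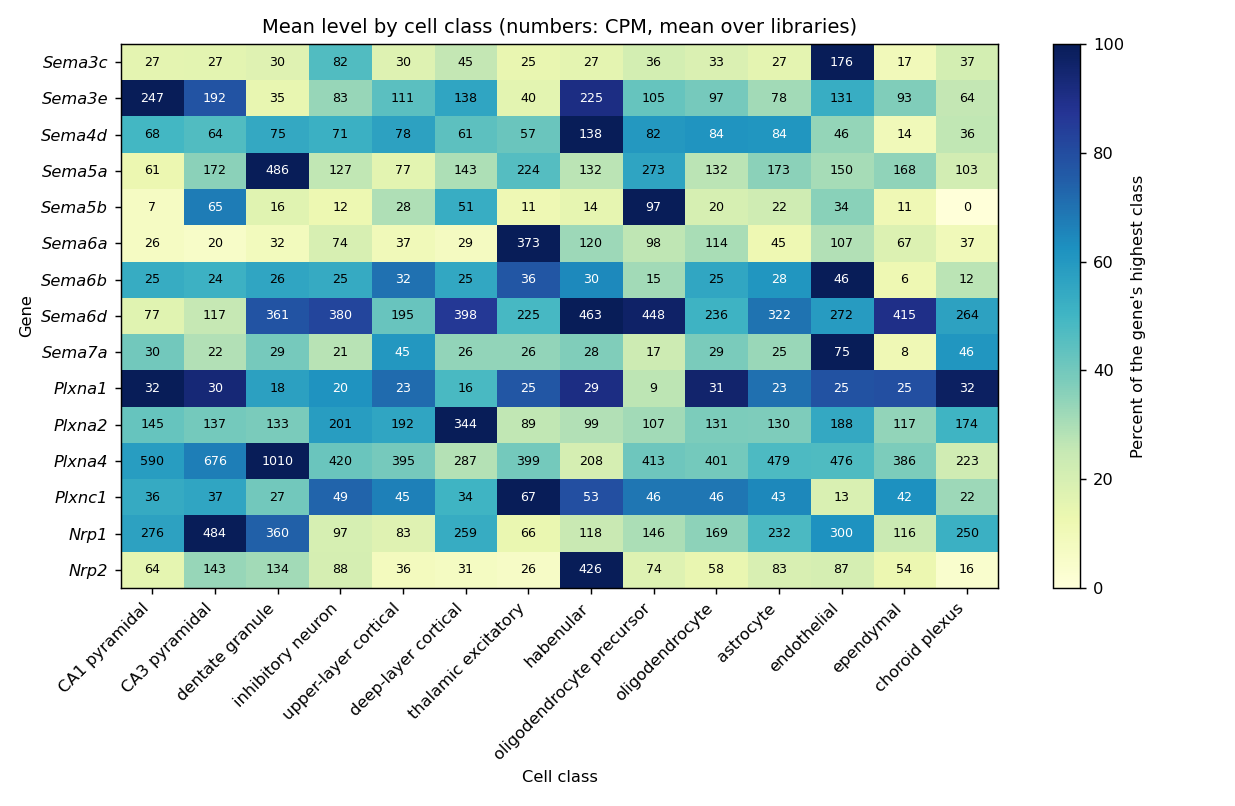
Mean CPM over libraries (number in each cell) of the 15 genes with at least 1000 UMIs, by cell class on the horizontal axis; the colour is the percent of the gene's highest class. Sema5a and Plxna4 are darkest in dentate granule, Sema3e in CA1, Sema6a in thalamic and Nrp2 in habenular nuclei.

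Of the secreted ligands, Sema3e had its highest mean in CA1 nuclei. Sema3E is unusual in its class in that it binds plexin D1 without a neuropilin. In CA1 nuclei its level was 227 and 268 CPM in the trained and 225 and 270.2 CPM in the untrained libraries, 247 ± 25.1 CPM (SD, n = 4). It was 225 CPM on average in habenular nuclei, which overlapped with CA1, and 192 ± 6.40 CPM (SD, n = 4) in CA3, where every library was below every CA1 library. Dentate granule nuclei had the lowest mean of the 14 classes, 35.1 ± 12.5 CPM (SD, n = 4), below the low-UMI level (81.4, 69.6, 57.8 and 59.7 CPM) in each library. After each nucleus was thinned to 600 UMIs, Sema3e was detected in 13.4% of CA1 nuclei (mean over libraries, 11.9 to 14.8%) and in 2.19% of dentate granule nuclei; without thinning the shares were 20.8% and 2.89%, at median depths of 958 and 820.0 UMIs. Its receptor gene Plxnd1 gave 348 UMIs in all and its highest class mean, 18.4 CPM in oligodendrocyte precursors, ranged from 10.2 to 29.1 CPM; in CA1, CA3 and dentate granule nuclei the mean was 5.50, 3.72 and 4.97 CPM.

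The other class 3 genes had their highest means outside CA1, CA3 and dentate granule nuclei, and of these only Sema3d stood apart from the next class in every library. Sema3d had its highest mean in oligodendrocyte precursors, 137 ± 51.7 CPM (SD, n = 4), with a range of 81.9 to 204 CPM. This level rested on 4, 8, 21 and 20 UMIs by library. Habenular nuclei followed with 36.7 to 65.0 CPM, and the remaining classes had means of 0 to 26.2 CPM. Sema3c, a ligand of both neuropilins, averaged 176 CPM in endothelial nuclei (76.6 to 261 CPM) and 82.0 CPM in inhibitory neurons (66.0 to 94.1 CPM), and these overlapped. Within the inhibitory neurons it was uneven: 2 of the 3 clusters averaged 136 and 154 CPM and the other 28.5 CPM. Sema3a, the classic collapse factor that signals through Nrp1 and plexin A4, was highest in deep-layer (30.8 to 70.7 CPM) and upper-layer (31.3 to 42.7 CPM) cortical nuclei and averaged 8.90, 3.16 and 6.19 CPM in CA1, CA3 and dentate granule nuclei. Sema3f, a ligand of Nrp2, gave 162 UMIs, with its highest mean of 14.5 CPM in deep-layer cortical nuclei.

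Among the membrane-bound ligands, Sema5a was highest in dentate granule nuclei. It encodes a transmembrane protein with thrombospondin repeats that is known to act on granule cell spines through plexin A2. Its level in dentate granule nuclei was 500.3 and 496 CPM in the trained and 432 and 517 CPM in the untrained libraries, 486 ± 37.2 CPM (SD, n = 4). The next classes were oligodendrocyte precursors at 237 to 306 CPM and thalamic excitatory nuclei at 172 to 261 CPM, which overlapped with each other and stayed below each dentate library. CA1 nuclei had the lowest mean, 61.3 ± 40.1 CPM (SD, n = 4), and lay below the low-UMI level (247, 161, 117 and 155 CPM) in each library. With nuclei thinned to 600 UMIs, 24.4% of dentate granule and 3.56% of CA1 nuclei held a Sema5a UMI, and 33.1% and 5.26% without thinning. Sema5b, the other class 5 gene, was highest in oligodendrocyte precursors (40.9 to 146 CPM) and CA3 nuclei (48.9 to 97.8 CPM), which overlapped; it averaged 16.1 CPM in dentate granule and 6.55 CPM in CA1 nuclei.

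Sema6a, a transmembrane ligand of plexins A2 and A4, had its highest level outside the hippocampal classes. In thalamic excitatory nuclei it reached 313 and 423 CPM in the trained and 318 and 438 CPM in the untrained libraries, 373 ± 66.9 CPM (SD, n = 4). Habenular nuclei were next (91.8 to 152 CPM), followed by oligodendrocytes (98.3 to 131 CPM), and CA3 nuclei had the lowest mean, 19.8 ± 8.11 CPM (SD, n = 4). At 600 UMIs per nucleus, 19.1% of thalamic and 1.11% of CA3 nuclei held a UMI (34.4% and 2.29% without thinning, at median depths of 1014 and 1087 UMIs). Sema6d, a ligand of plexin A1, was spread over many classes: habenular (416 to 498 CPM), oligodendrocyte precursor (408 to 495 CPM), deep-layer cortical (354 to 454 CPM) and inhibitory nuclei (341 to 425 CPM) overlapped, and dentate granule nuclei had 305 to 409 CPM. CA1 had the lowest mean at 77.5 CPM (53.0 to 134 CPM) and CA3 the next at 117 CPM (88.7 to 159 CPM), and these 2 overlapped.

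Of the remaining membrane-bound ligands, only Sema4d had a highest class whose libraries all lay above those of the next class. Sema4g had its highest mean in thalamic excitatory nuclei, at 29.3 and 33.1 CPM in the trained and 33.9 and 24.9 CPM in the untrained libraries, and overlapped there with inhibitory neurons (20.3 to 28.3 CPM). Sema4d, the ligand of plexin B1, averaged 138 CPM in habenular nuclei (122 to 168 CPM, 3 libraries) and 13.8 to 83.9 CPM in all other classes. Sema7a, which is anchored by a lipid and binds plexin C1 and integrins, averaged 75.0 CPM in endothelial nuclei (57.5 to 93.2 CPM) and 8.28 to 45.6 CPM elsewhere. Its endothelial level rested on as few as 1 UMI in a library. The highest class means of Sema4a, Sema4b, Sema4c, Sema4f, Sema6b and Sema6c lay between 6.55 CPM (Sema4c, upper-layer cortical) and 46.1 CPM (Sema6b, endothelial), with overlap between the first and the next class for each.

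**Figure D2:**
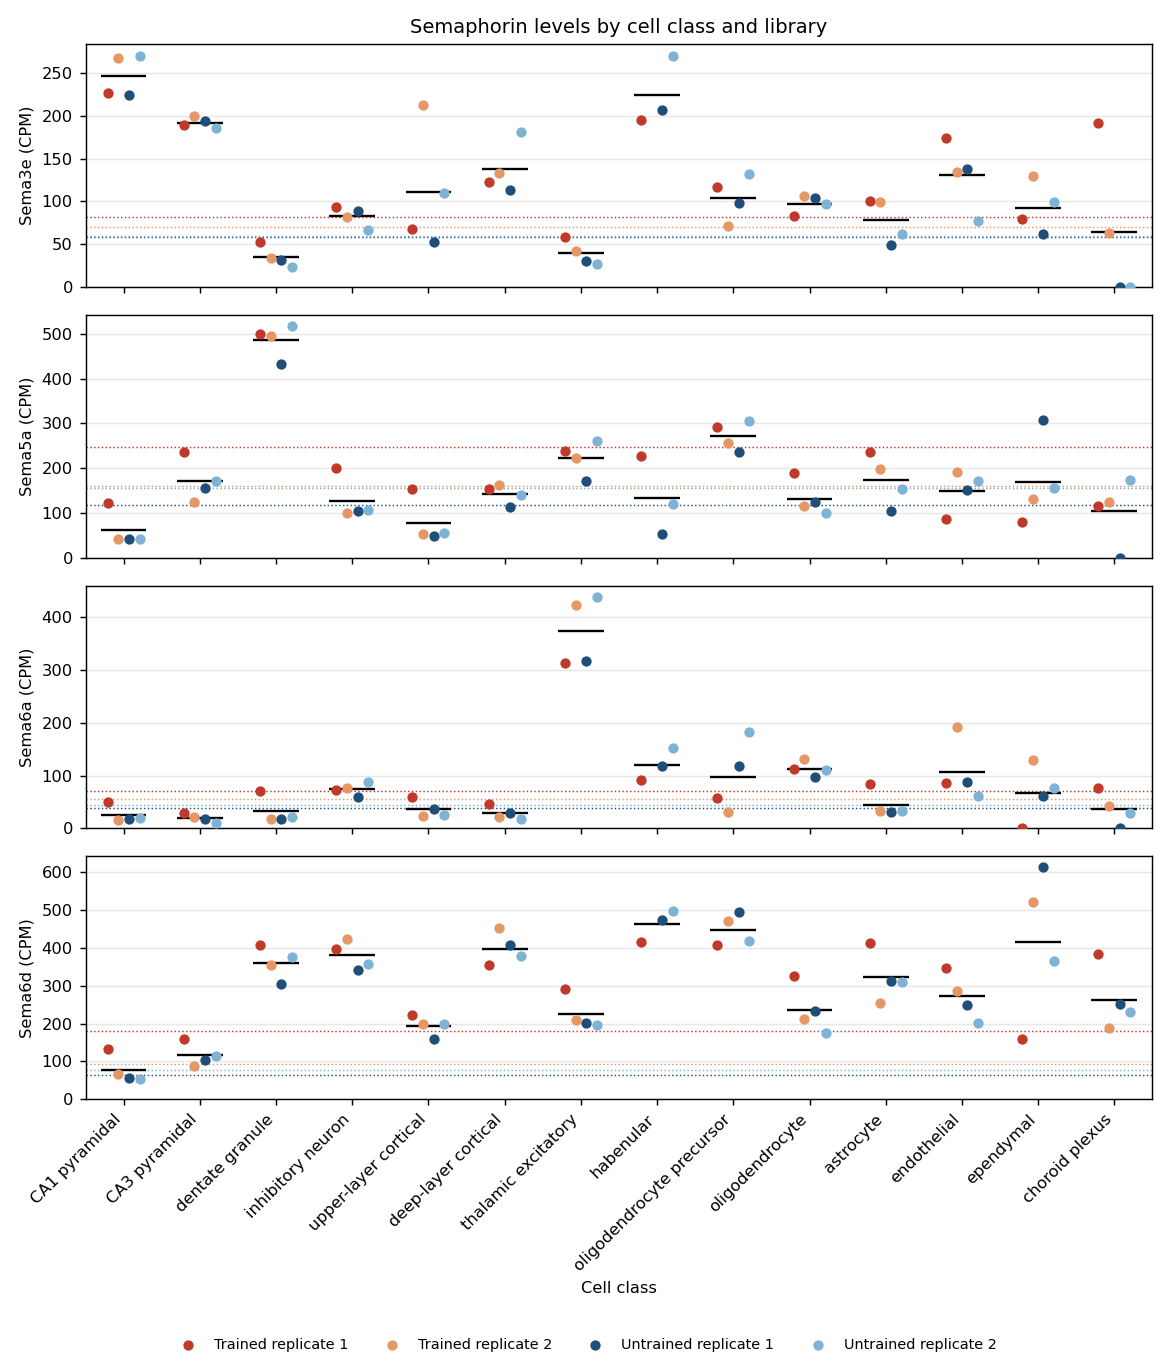
CPM of 4 semaphorin genes (vertical axes) by cell class; each point is 1 library, black lines are means over libraries and dotted lines the low-UMI level in the library of that colour. Sema3e is high in CA1 and CA3 and under the dotted lines in dentate granule nuclei, Sema5a is the reverse for CA1 and dentate granule nuclei, and Sema6a stands out in thalamic nuclei.

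Of the receptors, Plxna4, the plexin that partners neuropilins for class 3 and binds class 6 ligands, was highest in dentate granule nuclei, at 907 and 1090.0 CPM in the trained and 968 and 1073 CPM in the untrained libraries, 1009.6 ± 87.1 CPM (SD, n = 4). CA3 nuclei followed at 653 to 704 CPM and CA1 nuclei at 529 to 664 CPM, which overlapped, and habenular nuclei had the lowest mean, 208 CPM. The share of nuclei with a UMI at 600 UMIs was 44.0% in dentate granule and 12.0% in habenular nuclei (54.8% and 14.7% without thinning, at median depths of 820.0 and 798 UMIs). Plxna2, the receptor of Sema5A and Sema6A, was highest in deep-layer cortical nuclei, at 447 and 276 CPM in the trained and 350.4 and 302 CPM in the untrained libraries. Inhibitory neurons came next (163 to 237 CPM), below each deep-layer library, and in CA1, CA3 and dentate granule nuclei the mean was 145, 137 and 133 CPM. Plxna1 was nearly even, with its highest mean in CA1 nuclei at 32.4 and 35.7 CPM in the trained and 31.7 and 29.3 CPM in the untrained libraries and overlap with 10 of the 13 other classes. Plxnc1, the receptor of Sema7A, had its highest mean in thalamic excitatory nuclei at 58.6 and 60.8 CPM in the trained and 90.2 and 58.7 CPM in the untrained libraries and overlapped there with habenular nuclei (36.7 to 70.4 CPM).

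Plexins of the B group were low in neurons. Plxnb1, which drives RhoA through guanine nucleotide exchange factors, averaged 62.7 CPM in ependymal nuclei and 44.0 CPM in astrocytes (26.8 to 64.1 CPM), and 4.20 to 11.5 CPM in CA1, CA3, dentate granule, inhibitory, cortical and thalamic nuclei. Plxnb3 averaged 30.7 CPM in oligodendrocytes (19.5 to 46.2 CPM) and 30.4 CPM in their precursors (20.5 to 51.0 CPM), and at most 4.29 CPM in the 8 neuronal classes. Plxnb2 had its highest mean in ependymal nuclei (39.1 CPM, with a range of 0 to 79.8 CPM) and Plxna3, a partner of Nrp2, gave 320 UMIs in all.

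The neuropilins differed in where they were high. Nrp1, the co-receptor of Sema3A and of vascular endothelial growth factor, was highest in CA3 nuclei at 434 and 494 CPM in the trained and 468 and 540.1 CPM in the untrained libraries, 484 ± 44.6 CPM (SD, n = 4). Dentate granule nuclei followed at 246 to 447 CPM, overlapping with CA3, and CA1 nuclei at 223 to 316 CPM, below each CA3 library. The lowest means were in thalamic excitatory (65.6 CPM), upper-layer cortical (82.5 CPM) and inhibitory nuclei (97.4 CPM). Nrp2, the co-receptor of Sema3F, averaged 426 CPM in habenular nuclei, at 263, 489 and 525 CPM in Trained replicate 1 and Untrained replicates 1 and 2. CA3 (121 to 156 CPM) and dentate granule nuclei (122 to 145 CPM) came next and overlapped, and CA1 nuclei were lower at 50.9 to 83.0 CPM.

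**Figure D3:**
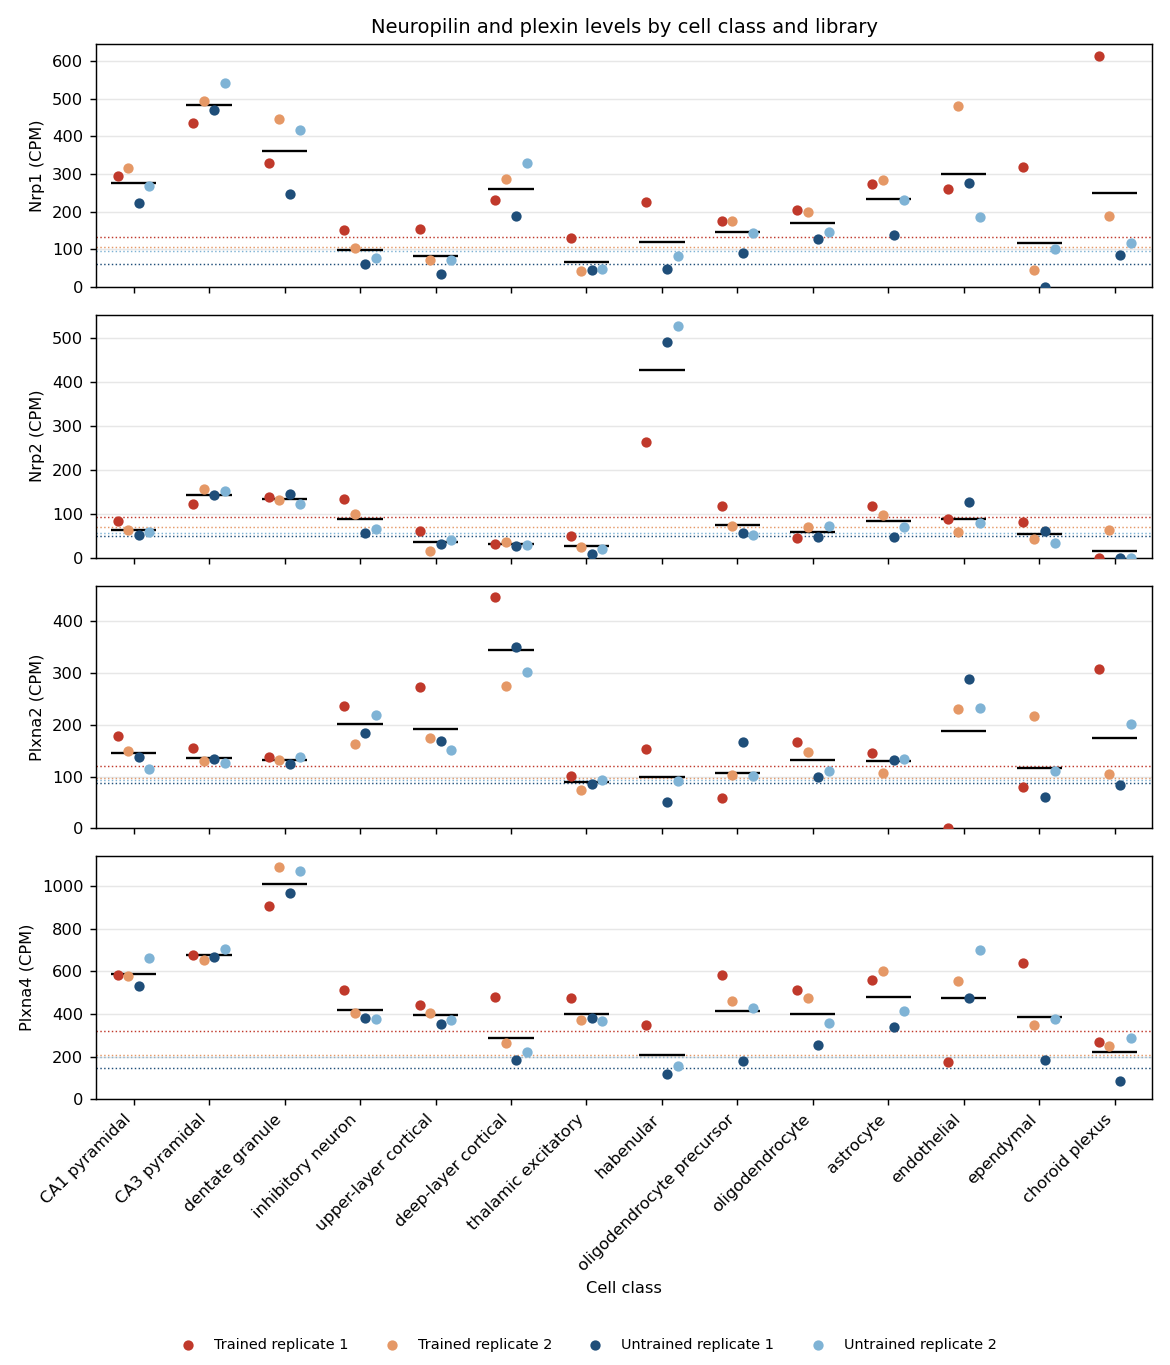
CPM of both neuropilins and of Plxna2 and Plxna4 (vertical axes) by cell class; points are libraries, black lines means and dotted lines the low-UMI level in the library of that colour. Nrp1 is highest in CA3, Nrp2 in habenular, Plxna2 in deep-layer cortical and Plxna4 in dentate granule nuclei.

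Set side by side, most of the 31 genes overlapped between each pair of the 3 hippocampal principal classes. These numbered 24 between CA1 and CA3, 22 between CA1 and dentate granule, and 24 between CA3 and dentate granule nuclei. The share of all genes that were separate between these classes is not given here. CA1 was above dentate granule nuclei in every library for Sema3e, 7.06-fold on the class means, and for Sema6c, and below them for 7 of the 31 genes. Those included Sema5a (7.93-fold higher in dentate granule), Sema6d (4.66-fold), Nrp2 (2.10-fold) and Plxna4 (1.71-fold). CA3 was above CA1 in every library for 6 genes, among them Sema5b (9.93-fold), Sema5a (2.81-fold), Nrp2 (2.24-fold) and Nrp1 (1.76-fold), and below it for Sema3e (1.29-fold higher in CA1). Between CA3 and dentate granule nuclei 3 genes were higher in CA3 (Sema3e, Sema3d and Sema5b) and 4 in dentate granule (Plxna4, Sema6d, Sema5a and Plxnb2).

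The effect of training was tested in the 10 classes with at least 30 nuclei in each library, by edgeR's quasi-likelihood test on counts summed per class and library, with Benjamini-Hochberg adjustment over all genes of the class at 0.05. The 31 genes gave 179 tests, of which 0 passed the threshold by this test; 0 of the 143 to which DESeq2 gave an adjusted p passed there. Sema3b, Sema3f, Sema3g and Sema4c passed the count filter in none of the 10 classes, so that 27 genes were tested in at least 1. Some genes met the filter only through the group where they were high, which favoured that sign and separate groups. Beside those named below, these were Sema5b and Sema6b in upper-layer cortical nuclei, Sema5b in astrocytes and Sema4g in CA1 (trained libraries). Through the untrained libraries they were Plxnd1 in CA1, Sema4a in astrocytes, Plxnb3 in oligodendrocytes and Sema5b in inhibitory neurons. At this size only large differences are likely to be called: in simulated counts 34.3% of genes changed 2-fold and 93.8% of those changed 4-fold were recovered for dentate granule nuclei, and 23.9% and 82.2% for oligodendrocytes. The simulation gave every gene the same dispersion and changed many genes at once, 99 by 2-fold and 97 by 4-fold for dentate granule nuclei. Where few genes pass, the adjusted threshold is stricter, so recovery in the real data can be lower.

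In CA1 nuclei, 25 of the 31 genes were tested and 0 passed, against 0.00817% of all genes; 2 had an unadjusted p under 0.05 (4.08% of all genes). Both trained libraries lay above both untrained for 13 of the 25 (16.5% of all genes) and below for 2 (17.1%), and the median log2 difference between trained and untrained was 0.30, against -0.0073 over all genes. Sema6d was 134 and 66.4 CPM in the trained and 56.8 and 53.0 CPM in the untrained libraries, a log2 difference of 0.71 (SE 0.26, adjusted p = 1.0). Trained replicate 1 stood far above the other 3 libraries, and each library lay below its low-UMI level (180.3, 93.2, 63.1 and 78.5 CPM). Sema7a was 44.6 and 30.2 CPM in the trained and 24.6 and 20.9 CPM in the untrained libraries, with a difference of 0.59 (SE 0.25, adjusted p = 1.0), also below its low-UMI level in every library. Sema5a was 122 and 41.6 CPM in the trained and 40.9 and 41.4 CPM in the untrained libraries, with a difference of 0.72 (SE 0.36, adjusted p = 1.0); again Trained replicate 1 was the only high library, and each lay below its low-UMI level. Without Trained replicate 2, Sema6d (1.25), Sema5a (1.52) and Sema6a (1.40) passed the threshold. Without Trained replicate 1, Sema6d was 0.30 and Sema5a 0.046, and with at least 1000 UMIs a nucleus Sema6d was 0.15, Sema7a 0.19 and Sema5a 0.051.

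In CA3 nuclei, 0 of 19 tested genes passed (0.0197% of all genes), 1 had an unadjusted p under 0.05 (3.01%), 1 was higher in both trained libraries (17.7%) and 3 lower (12.3%). Sema5b, which is well above its low-UMI level here, was 55.9 and 48.9 CPM in the trained and 57.8 and 97.8 CPM in the untrained libraries, a log2 difference of -0.63 (SE 0.26, adjusted p = 0.999). The groups did not overlap, but Untrained replicate 1 was close to Trained replicate 1, and without Untrained replicate 2 the difference was -0.18. Sema6a was 29.8 and 21.0 CPM in the trained and 18.3 and 10.1 CPM in the untrained libraries, with a difference of 0.75 (SE 0.38, adjusted p = 0.999), below its low-UMI level in every library. Plxnc1 was 34.5 and 29.6 CPM in the trained and 41.6 and 43.3 CPM in the untrained libraries, with a difference of -0.46 (SE 0.27, adjusted p = 0.999). Neither of these overlapped between the groups. Sema6a ran from 0.40 to 1.23 over the left-out libraries, and Plxnc1 was 0.066 with nuclei named by a count of markers in each nucleus. Nrp1, at its highest in this class, differed by -0.16 (SE 0.17) with overlapping groups.

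In dentate granule nuclei, 0 of 24 genes passed (0.0247% of all), 2 had an unadjusted p under 0.05 (6.45%), 4 were higher in both trained libraries (16.1%) and 2 lower (19.7%). Among the genes abundant in this class, Plxna4 differed by -0.0041 (SE 0.18), Sema5a by 0.088 (SE 0.17) and Nrp2 by 0.031 (SE 0.18). Sema6d differed by 0.17 (SE 0.18) and Nrp1 by 0.27 (SE 0.21). The groups overlapped for all of these. The smallest p-values belonged to sparse genes. Plxnb1 was 13.7 and 8.22 CPM in the trained and 3.61 and 3.92 CPM in the untrained libraries, on 6, 14, 8 and 9 UMIs, with a difference of 1.36 (SE 0.55, adjusted p = 0.702). Plxnb1 met the count filter only through the trained libraries, where it was high, so the filter favoured a positive sign for it. Sema3e was 52.5 and 33.5 CPM in the trained and 31.1 and 23.1 CPM in the untrained libraries, with a difference of 0.55 (SE 0.26, adjusted p = 0.772). The groups were separate for both, but Sema3e ran from 0.35 to 0.93 over the left-out libraries and was 0.041 with at least 1000 UMIs. Sema6a was 70.8 and 18.2 CPM in the trained and 17.1 and 22.2 CPM in the untrained libraries, with a difference of 0.76 (SE 0.38, adjusted p = 0.787), and only Trained replicate 1 was high: without it the difference was -0.066, and without Trained replicate 2 it was 1.82. All 3 lay below their low-UMI level in each library.

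In inhibitory neurons both neuropilins were higher in each trained library than in each untrained one, short of the threshold. Here 0 of 20 genes passed (0.0706% of all), 2 had an unadjusted p under 0.05 (5.65%), 6 were higher in both trained libraries (15.2%) and 2 lower (19.1%). Nrp2 was 132 and 98.1 CPM in the trained and 56.5 and 65.2 CPM in the untrained libraries, a log2 difference of 0.91 (SE 0.25, adjusted p = 0.298). Nrp1 was 150.1 and 104 CPM in the trained and 60.3 and 75.2 CPM in the untrained libraries, a difference of 0.90 (SE 0.25, adjusted p = 0.318). The low-UMI levels in the same libraries were 92.5, 70.1, 49.5 and 55.8 CPM for Nrp2 and 132, 106, 61.1 and 95.2 CPM for Nrp1, so that Nrp2 lay above its low-UMI level in 4 libraries and Nrp1 in 1; their part in the difference was not tested, and after the low-UMI profile was subtracted from the counts the differences were 0.96 for Nrp2 and 0.98 for Nrp1 (adjusted p = 1.0 for each). With nuclei named by a count of markers in each nucleus, the difference was 0.41 for Nrp1 and 0.90 for Nrp2. The clusters joined in this class numbered 184, 432, 801 and 316 nuclei by library, 147, 255, 279 and 167, and 97, 202, 219 and 143. No single cluster was fitted alone here, and the part of this mix in the differences was not tested. Nrp1 passed the threshold without Untrained replicate 2 (1.07, adjusted p = 0.0491). Sema5a was 201 and 99.3 CPM in the trained and 103 and 105 CPM in the untrained libraries, with a difference of 0.46 (SE 0.26, adjusted p = 0.863) and overlap; it ran from -0.034 to 0.97 over the left-out libraries.

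**Figure D4:**
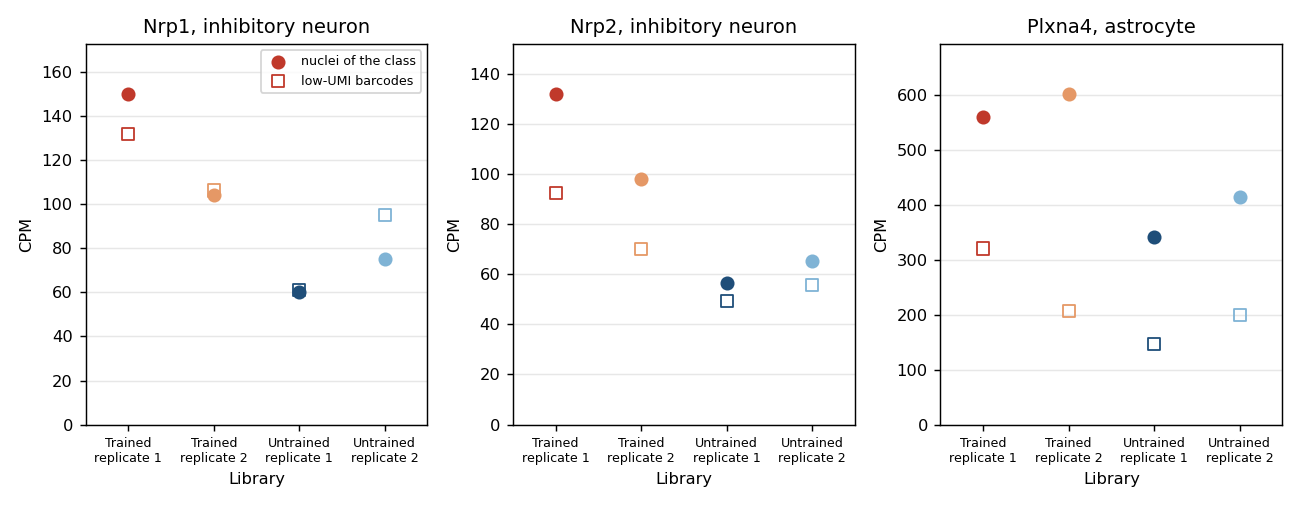
CPM (vertical axis) of Nrp1 and Nrp2 in inhibitory neurons and of Plxna4 in astrocytes, by library; filled circles are nuclei of the class and open squares the low-UMI barcodes of the same library. In each panel both symbols are higher in the trained than in the untrained libraries. For Nrp2 in inhibitory neurons and Plxna4 in astrocytes each circle stands above its square.

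In thalamic excitatory nuclei, 0 of 16 genes passed (0.0119% of all) and 3 had an unadjusted p under 0.05 (4.87%), with 3 higher in both trained libraries (17.4%) and 0 lower (14.1%). Nrp2 was 49.4 and 23.9 CPM in the trained and 8.49 and 20.5 CPM in the untrained libraries, on 32, 13, 8 and 14 UMIs, a log2 difference of 1.42 (SE 0.47, adjusted p = 0.712). Sema3e was 58.6 and 42.3 CPM in the trained and 30.8 and 26.4 CPM in the untrained libraries, with a difference of 0.81 (SE 0.32, adjusted p = 0.949). Nrp1 was 129.6 and 42.3 CPM in the trained and 43.5 and 46.9 CPM in the untrained libraries, with a difference of 0.94 (SE 0.37, adjusted p = 0.960); Trained replicate 1 alone was high, and without it the difference was -0.087. All 3 lay below their low-UMI level in each library, and without Trained replicate 2 Nrp2 (1.79) and Nrp1 (1.47) passed the threshold. Without Untrained replicate 1 Nrp2 was 0.77, thinned to 600 UMIs it was 0.75, and Sema3e was 0.25 with nuclei named by a count of markers in each nucleus. Sema6a, highest in this class, differed by -0.055 (SE 0.25).

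In upper-layer cortical nuclei, 0 of 16 genes passed (0.13% of all), 3 had an unadjusted p under 0.05 (6.67%), 7 were higher in both trained libraries (18.3%) and 1 lower (18.8%). Nrp1 was 154 and 72.4 CPM in the trained and 32.7 and 71.3 CPM in the untrained libraries, a log2 difference of 1.21 (SE 0.40, adjusted p = 0.437). Both trained libraries were above both untrained ones, but Trained replicate 2 only just exceeded Untrained replicate 2, and 1 library lay above its low-UMI level. Sema3e was 68.3 and 212 CPM in the trained and 53.1 and 109.5 CPM in the untrained libraries, with a difference of 1.06 (SE 0.36, adjusted p = 0.465); Trained replicate 2 was the high library, and without it the difference was -0.16. Sema5a was 154 and 53.1 CPM in the trained and 47.6 and 55.6 CPM in the untrained libraries, with a difference of 0.88 (SE 0.38, adjusted p = 0.667), and only Trained replicate 1 was high. Without Untrained replicate 2, Nrp1 (1.64) and Sema3e (1.53) passed the threshold, and Sema3e also did so without Trained replicate 1 (1.54). Without Untrained replicate 1, Nrp1 was 0.51 and Sema3e 0.49, and without Trained replicate 1 Sema5a was 0.11. The trained libraries held 155 and 234 of these nuclei and the untrained 2815 and 507.

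In deep-layer cortical nuclei, 0 of 17 genes passed (0.0126% of all) and 1 had an unadjusted p under 0.05 (4.38%); 3 were higher in both trained libraries (16.9%) and 2 lower (19.6%). Plxna4 was 478 and 264 CPM in the trained and 183 and 224 CPM in the untrained libraries, a log2 difference of 0.69 (SE 0.28, adjusted p = 1.0), with Trained replicate 1 far above the rest on 91, 445, 1347 and 653 nuclei by library. Sema3a was 30.8 and 47.3 CPM in the trained and 70.7 and 48.9 CPM in the untrained libraries, with a difference of -0.46 (SE 0.38, adjusted p = 1.0), and Sema5a was 154 and 161 CPM in the trained and 114 and 141 CPM in the untrained libraries, with a difference of 0.33 (SE 0.28, adjusted p = 1.0). The groups were separate for all 3, and over the left-out libraries Plxna4 ran from 0.43 to 1.06, Sema3a from -1.17 to -0.15 and Sema5a from 0.11 to 0.48. Plxna2, highest in this class, differed by -0.0039 (SE 0.26).

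Astrocytes came closest to a call. Of 17 genes tested, 0 passed (2.25% of all genes did, or 186), 6 had an unadjusted p under 0.05 (15.4%), 9 were higher in both trained libraries (19.9%) and 2 lower (24.8%). Plxna4 was 559.8 and 602 CPM in the trained and 341 and 414 CPM in the untrained libraries, a log2 difference of 0.68 (SE 0.21, adjusted p = 0.0510). Sema5a was 235 and 198 CPM in the trained and 103 and 154 CPM in the untrained libraries, with a difference of 0.79 (SE 0.25, adjusted p = 0.0635), and Sema3e was 101 and 99.0 CPM in the trained and 49.4 and 61.9 CPM in the untrained libraries, with a difference of 0.91 (SE 0.31, adjusted p = 0.0940). For all 3 both trained libraries were above both untrained ones. Of the 17 differences, 11 were positive and 6 negative. Plxnb1, outside these 3 and named after its values were seen, went the other way. It was 28.0 and 26.8 CPM in the trained and 57.1 and 64.1 CPM in the untrained libraries, a difference of -1.09 (SE 0.39, adjusted p = 0.120). The class joined 2 clusters: one, with dentate granule markers raised, numbered 228, 444, 340 and 227 nuclei by library and the other 7, 66, 382 and 250. Plxna4 averaged 578 CPM in the former and 144 CPM in the latter, Sema5a 197 and 72.1 CPM, and Sema3e 89.1 and 42.7 CPM. Within the former cluster alone the differences were 0.18 for Plxna4 (adjusted p = 0.996), 0.40 for Sema5a and 0.34 for Sema3e. Summed over the class, the 10 astrocyte markers were at 5155, 6822, 8517 and 8982 CPM, the 7 dentate granule markers at 2071, 2074, 1659.8 and 2125 CPM and the 6 CA1 markers at 2161, 1788, 1564 and 1532 CPM, with none at 0; their part in the differences was not tested. Without Untrained replicate 2, Plxna4 (0.83), Sema5a (1.09), Nrp1 (1.07) and Nrp2 (1.17) passed the threshold, and with nuclei thinned to 600 UMIs Plxna4 (0.93), Sema5a (1.05), Sema3e (1.19) and Nrp2 (1.14) did. Without Untrained replicate 1, Sema5a was 0.48.

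In oligodendrocytes Plxna4 again had the smallest p. Of 16 genes, 0 passed (0.0133% of all), 3 had an unadjusted p under 0.05 (9.47%), 4 were higher in both trained libraries (17.7%) and 1 lower (23.0%). Plxna4 was 514 and 477 CPM in the trained and 253 and 359 CPM in the untrained libraries, a log2 difference of 0.73 (SE 0.24, adjusted p = 0.372). Nrp1 was 204 and 198 CPM in the trained and 127 and 147 CPM in the untrained libraries, with a difference of 0.59 (SE 0.27, adjusted p = 0.493), and Plxna2 was 166 and 148 CPM in the trained and 100.1 and 111 CPM in the untrained libraries, with a difference of 0.59 (SE 0.28, adjusted p = 0.513). All 3 were separate between the groups and above their low-UMI level in each library. The class joined 3 clusters, and the one with raised CA1 markers (107, 190, 90 and 108 nuclei by library) had higher means of Plxna4 (522 CPM) and Nrp1 (225 CPM) than the one with the strongest oligodendrocyte markers (347 and 123 CPM; 37, 127, 355 and 279 nuclei). The 6 CA1 markers summed to 4030.3, 4339, 2445 and 3288 CPM and the 9 oligodendrocyte markers to 4091, 4986, 5374 and 6604 CPM, with none at 0, and their part was not tested. In the cluster with the strongest oligodendrocyte markers alone the differences were 0.86 for Plxna4 (adjusted p = 0.80), 0.58 for Nrp1 and 0.61 for Plxna2. Plxna4 passed the threshold without Untrained replicate 2 (1.01) and was 0.47 without Untrained replicate 1. Plxna2 was 0.33 with nuclei named by a count of markers in each nucleus and 0.96 with nuclei thinned to 600 UMIs.

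Oligodendrocyte precursors, 430 nuclei in all, were the only one of the 10 classes in which most of the tested genes had a negative difference: 7 of 9, with a median log2 difference of -0.42 against -0.030 over all genes. Of the 9, 0 passed (0.0836% of all), 2 had an unadjusted p under 0.05 (13.2%), 2 were higher in both trained libraries (23.3%) and 3 lower (20.5%). Sema6a was 58.3 and 30.7 CPM in the trained and 119 and 184 CPM in the untrained libraries, on only 2, 3, 17 and 18 UMIs, a log2 difference of -1.91 (SE 0.60, adjusted p = 0.199). Sema5b, at its highest in this class, was 87.4 and 40.9 CPM in the trained and 146 and 112 CPM in the untrained libraries, on 3, 4, 21 and 11 UMIs, with a difference of -1.28 (SE 0.57, adjusted p = 0.366). Sema6a and Sema5b met the count filter only through the untrained libraries, where they were high, so the filter favoured a negative sign for them. Plxna4 went the other way at 583 and 461 CPM in the trained and 181 and 428 CPM in the untrained libraries, a difference of 0.78 (SE 0.38, adjusted p = 0.403), with Untrained replicate 1 well below the other 3 libraries; it passed the threshold without Untrained replicate 2 (1.47) and was 0.22 without Untrained replicate 1. With doublets kept, Sema6a was -1.09 and Sema5b -0.62, and without Trained replicate 2 Sema5b was -0.64. The 7 precursor markers summed to 4080.4, 6223, 6573 and 8139 CPM, and the 6 CA1 markers to 3294, 1914, 1157 and 1346 CPM; their part in these values was not tested.

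Read by gene, Nrp1 had a positive difference in 9 of 10 classes, with a median of 0.60 and a range of -0.16 (CA3) to 1.21 (upper-layer cortical), and Nrp2 in 7 of 9, with a median of 0.32. Sema5a and Sema6d were positive in 9 of 10, with medians of 0.35 and 0.20, Plxna4 in 7 with a median of 0.25, and Plxna2 in 5 with a median of 0.026. Of the 179 tests of the 31 genes, 123 had a positive difference, where 47.7 to 51.2% of all genes in a class did. The share of all genes that were positive in as many classes is not given here. The classes come from the same 4 mice and are not independent repeats. In the low-UMI barcodes, trained against untrained differed by 0.54 (SE 0.21, adjusted p = 0.245) for Nrp1, 0.55 (SE 0.17, adjusted p = 0.201) for Nrp2, 0.53 (SE 0.25, adjusted p = 0.276) for Plxna4, 0.51 (SE 0.23, adjusted p = 0.276) for Sema5a, 0.87 (SE 0.28, adjusted p = 0.205) for Sema6d and 0.19 (SE 0.16, adjusted p = 0.545) for Plxna2 in the same edgeR test. For all 6 the low-UMI level was highest in Trained replicate 1, the shallowest library. The part of the low-UMI RNA in the class values was not tested. Among the 30 values named for the 10 classes, 16 were of genes that lay above their low-UMI level in at most 1 library of the class.

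**Figure D5:**
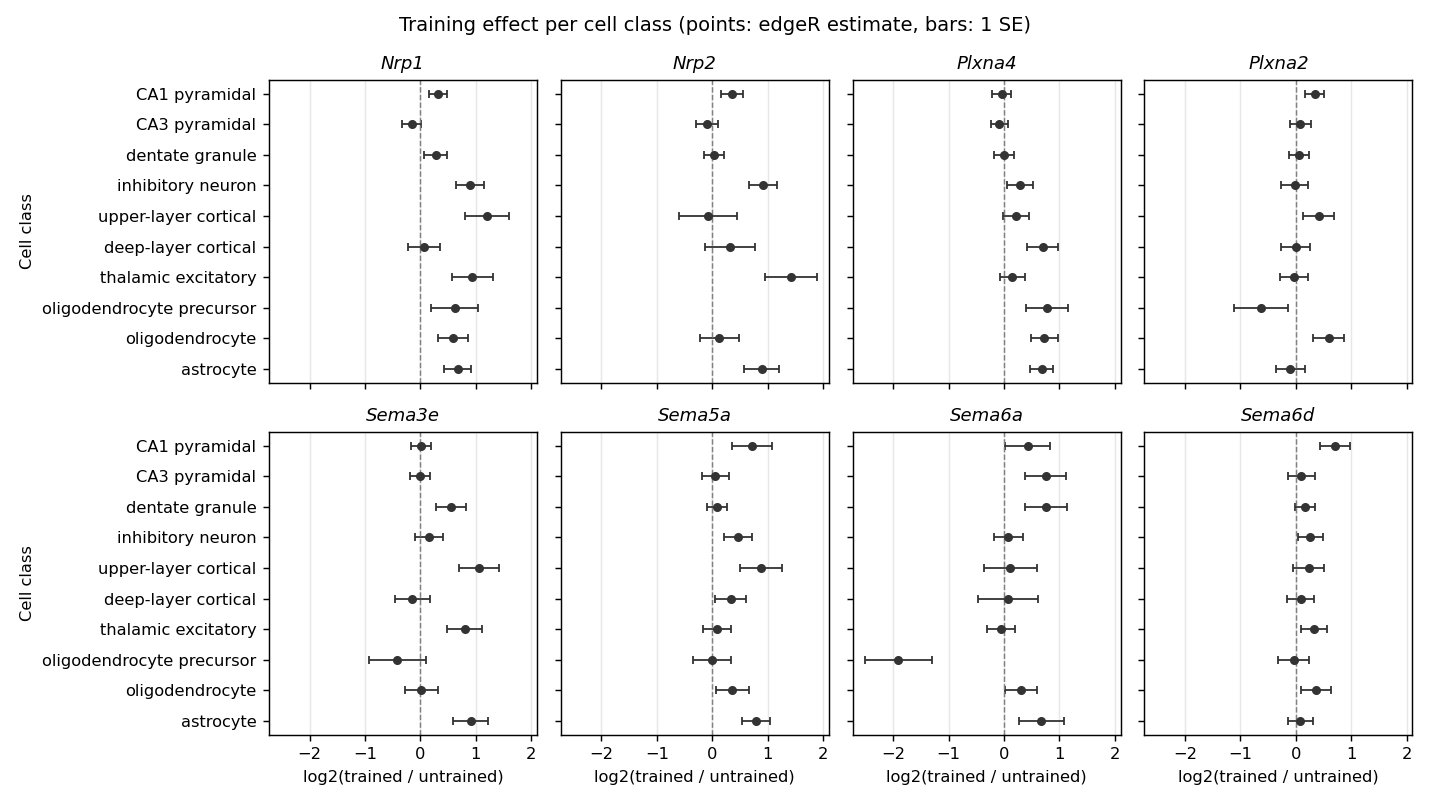
Log2 difference between trained and untrained libraries (horizontal axis) with 1 SE from edgeR, for 8 genes in the 10 tested cell classes (vertical axis); n = 2 libraries a group. Nrp1 lies right of 0 except in CA3, and none of the points passed the adjusted threshold.

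Whether training acted differently in 1 class than in the others was tested in a fit of all 10 classes with the library as a block, setting each class against the mean of the other 9. Of 260 tests of the 31 genes (26 passed the count filter), 0 passed the edgeR threshold. This model was fitted with edgeR alone. Its p-values rest on the scatter of the classes within libraries, so classes of the same mice count as repeats in it. Nrp1 in CA3 came closest: its training effect there was lower than the mean of the other classes by -0.76 (SE 0.19, adjusted p = 0.157), as a log2 value of CA3 minus the others. In this CA3 contrast Sema5b was -0.81 (SE 0.28, adjusted p = 0.402), Plxna4 -0.45 (SE 0.16, adjusted p = 0.441) and Nrp2 -0.56 (SE 0.21, adjusted p = 0.502). An unadjusted p under 0.05 was reached by 5 of the 26 in the CA3 contrast (7.38% of all genes, with 0.0248% past the threshold), 6 in CA1 (5.84% and 0.0578%), 3 in astrocytes (7.25% and 0.0%), 5 in precursors (6.48% and 0.0248%) and 3 in oligodendrocytes (6.09% and 0.0%). It was reached by 3 in dentate granule (4.2% and 0.0%), 2 in thalamic (8.7% and 0.132%), 1 in inhibitory (4.56% and 0.0165%), 1 in upper-layer (5.41% and 0.0%) and 0 in deep-layer cortical nuclei (4.66% and 0.0%). Without Trained replicate 2, Nrp1 in CA3 and Sema6d in CA1 passed.

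Summed over all barcodes with at least 600 UMIs, where cell make-up and RNA per cell cannot be told apart, 0 of 30 tested genes passed by edgeR (0.0% of all genes) and 0 of the 9 with an adjusted p by DESeq2, 3 had an unadjusted p under 0.05 (6.27%), 9 were higher in both trained libraries (14.8%) and 4 lower (22.1%). Nrp2 was 102 and 92.9 CPM in the trained and 71.2 and 82.7 CPM in the untrained libraries, a log2 difference of 0.37 (SE 0.14, adjusted p = 0.792). Sema4b, at 13.5 and 15.1 CPM in the trained and 10.7 and 10.8 CPM in the untrained libraries, differed by 0.46 (SE 0.17, adjusted p = 0.792). Sema3a, at 9.79 and 7.95 CPM in the trained and 24.0 and 9.55 CPM in the untrained libraries, differed by -0.92 (SE 0.39, adjusted p = 0.792). Untrained replicate 1, the library with the most upper-layer and deep-layer cortical nuclei, was the high one. Among the classes where Sema3a was tested, it was also the highest library in CA1 (18.0 CPM), inhibitory (32.8 CPM) and deep-layer cortical nuclei (70.7 CPM). It was not the highest in dentate granule or upper-layer cortical nuclei. The part of cell make-up in this difference was not tested. Without Untrained replicate 2, Nrp1 (0.82) and Sema3a (-1.43) passed the threshold; without Untrained replicate 1 Sema3a was -0.11.

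Signalling partners were read from a list of 52 genes for co-receptors, kinases, GTPases, exchange factors and cytoskeletal effectors. Between 19 and 41 of them were tested in a class, and of the 350 tests in 10 classes 0 passed by edgeR, with 23 under an unadjusted p of 0.05. The share of all genes that passed was the one given for each class above. Ptprz1, a receptor phosphatase that is also a precursor marker here, was among the 2 partners with the smallest p in CA1 (0.37, SE 0.19), CA3 (0.74, SE 0.30), deep-layer cortical (0.62, SE 0.40) and inhibitory nuclei (0.61, SE 0.24). Also named by this rule were Dpysl5 in CA1 (0.64, SE 0.27) and inhibitory nuclei (0.60, SE 0.26), Dpysl4 in CA3 (1.44, SE 0.50), and Dpysl3 in deep-layer cortical (1.0, SE 0.49) and thalamic nuclei (-1.04, SE 0.32). In dentate granule nuclei the partners with the smallest p were Gipc1 (-0.96, SE 0.39), an adaptor that binds neuropilin, and the small GTPase Rnd1 (-1.46, SE 0.63). In astrocytes they were Rhoa (-0.87, SE 0.34) and Farp1 (-0.52, SE 0.22), in oligodendrocytes Chl1 (0.67, SE 0.26) and Fer (0.65, SE 0.29), and in their precursors Tiam1 (1.43, SE 0.46) and Ranbp9 (-1.41, SE 0.58). Cntn2, an axonal adhesion protein, was named in thalamic (0.61, SE 0.32) and upper-layer cortical nuclei (-1.28, SE 0.66), the latter with the exchange factor Arhgef12 (0.49, SE 0.28).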

How the data were processed

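The authors deposited UMI counts per gene and barcode for each of the 4 libraries, as matrices from Cell Ranger 7.0.0 per the file headers; the submitters' processing notes list Cell Ranger 8, STAR and the builds GRCm39 and mm39, and the annotation release and the treatment of intronic reads are not given in the sources used here. The deposited files hold 73013, 65863, 79810 and 41903 barcodes (Trained replicates 1 and 2, Untrained replicates 1 and 2), none of them under 101, 174, 201 and 251 UMIs. Those with at least 600 UMIs were kept (6019, 12206, 16916 and 11969), and the highest doublet scores against simulated doublets, at most 8% of a library, were removed. Nuclei were clustered over 2000 variable genes, without the genes described, with 30 components, 20 neighbours and Leiden resolution 1 (leidenalg 0.10.2), and a cluster took a class name where that class's markers had a mean log2 fold of at least 0.8 over all other barcodes kept, at least 3 of them above 0.5, and a lead of at least 0.5 over the next marker set, and no other set had more markers among the cluster's top 10 genes. Counts were summed per class and library; 30 nuclei in each library were required for a test and 10 for a level. Trained and untrained sums were compared with edgeR 4.0.16 (R 4.3.3; filterByExpr, TMM, glmQLFit and glmQLFTest), adjusted by Benjamini-Hochberg over all genes of a class, and with DESeq2 1.42.0 as an alternative. The script was tested on simulated data. For shares of nuclei with a UMI, each nucleus was thinned to 600 UMIs without replacement; shares over libraries carry counting error and the spread between mice. Alternatives covered normalization, count filter, block, left-out libraries, doublets, UMI minimum, thinning, subtraction of the low-UMI profile, a per-nucleus marker gate and resolution 2; 3 more were chosen after seeing the data (a single astrocyte cluster, a single oligodendrocyte cluster, and the low-UMI barcodes). Values in each library are given for genes past the threshold, for the 3 with the smallest unadjusted p in a class, and for each gene in its highest class if that class held at least 10 of its UMIs in every library; up to 2 partners a class are named by smallest p. Other genes named for their levels were chosen after their values were seen. The members and lists were chosen with earlier results of these data known. The spatial sections of these mice were not used here.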

Additional observations from a re-analysis of the deposited data

How the results depend on the processing

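With every alternative fitted, the number of the 31 genes past the threshold stayed at 0 in CA3, dentate granule and deep-layer cortical nuclei. It reached 4 in astrocytes with nuclei thinned to 600 UMIs and 1 over all barcodes with no count filter (Sema3a). Leaving out 1 library at a time gave 0 to 3 in CA1, 0 to 4 in astrocytes, 0 to 1 in inhibitory neurons, oligodendrocytes and their precursors, 0 to 2 in thalamic and upper-layer cortical nuclei and over all barcodes, and 0 to 1 in the difference between classes for CA1 and CA3; the lone library of a group is then assumed to vary like the others. The replicate numbers are shared by trained and untrained mice. Deviations of same-numbered libraries correlated at 0.036 to 0.208 over the classes, highest in thalamic nuclei, and at -0.003 over all barcodes. Whether these libraries share more than a number was not tested. With the replicate block, 0 of the 31 genes passed in each class and over all barcodes. The count over all genes moved from 3 to 31 in dentate granule, 1 to 91 in thalamic and 2 to 51 in precursor nuclei. It moved from 9 to 26 in upper-layer cortical nuclei and from 186 to 1 in astrocytes. Over all settings other than left-out libraries, the count over all genes ran from 0 to 382 in astrocytes, and with left-out libraries from 16 to 386; in the other classes the highest with a left-out library was 242 (oligodendrocytes). With no count filter, 159 genes passed over all barcodes.

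Single-gene differences changed sign for Plxnc1 in CA3 with the marker gate (0.066) and, with at least 1000 UMIs, for Sema6a in dentate granule (-0.79) and Sema5a in inhibitory nuclei (-0.067). They also did so when Trained replicate 1 or, for Sema3e, Trained replicate 2 was left out: over the left-out libraries Sema6a in dentate granule ran from -0.066 to 1.82, Sema5a in inhibitory neurons from -0.034 to 0.97, Nrp1 in thalamic nuclei from -0.087 to 1.47 and Sema3e in upper-layer cortical nuclei from -0.16 to 1.54. The cause was not tested. Of 413 values under alternatives for the named genes, 389 kept their direction and side of the threshold. For Sema3e the class with the highest mean became habenular with at least 1000 UMIs, and for Plxna1, Plxnc1 and Sema4g it changed under at least 1 of 3 alternatives; it stayed for the other 5 of the 9 genes named by this rule. At least 1000 UMIs could not be fitted in 5 classes or the marker gate in 3, for lack of nuclei. Depth limits the sparse genes most: Sema3b, Sema3f, Sema3g and Sema4c could not be tested in a class. DESeq2 gave no adjusted p to 14 of 17 genes in astrocytes, 15 of 16 in oligodendrocytes, 7 of 9 in precursors and 21 of 30 over all barcodes, and these are left out of its counts.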

Other observations

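Among the 8016 nuclei that took no class name, 2 clusters had a mean above that of the highest named class, for 1 gene each. They were picked after their values were seen. Cluster 17 had Sema5b at 70.6, 238, 189.6 and 219 CPM by library, where the highest named class, oligodendrocyte precursors, averaged 96.7 CPM. Cluster 10 had Sema6d at 707, 477, 555 and 556 CPM, where the highest named class, habenular nuclei, averaged 463 CPM.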
